A study of Mus musculus with 12 samples.

Results

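The genes described here encode Rab, Arf and Arl proteins, the small GTPases of membrane traffic. Members were taken by symbol among the protein-coding genes of the mouse genome build GRCm38 (mm10): Rab, Arf or Arl followed by a number and at most 1 letter. This gave 85 of 21896 protein-coding genes, namely 59 Rab, 6 Arf and 20 Arl genes. A deposited cluster, a stretch of the genome where crosslinked reads piled up, was given to a member when its centre lay in the gene body and on the gene's strand.

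Crosslinking with immunoprecipitation (iCLIP) located RNA contacts of 3 Flag-tagged proteins in N2A cells, a mouse neuroblastoma line: Rbm38 and Puf60 including or lacking its exon 5. Puf60 takes part in splicing and binds pyrimidine-rich RNA ahead of 3′ splice sites. Rbm38 binds RNA too, and its gene is a p53 target. Every group came from a Flp-in N2A line carrying a doxycycline-controlled transgene, so all values describe tagged protein made from a transgene beside the cells' own. Per protein there were 3 immunoprecipitated libraries and 1 size-matched input, 12 samples in all, from cells given 1 µg/ml doxycycline and then ultraviolet light (150 mJ/cm2 at 254 nm). Induction lasted 48 h for the 3 immunoprecipitated libraries of Puf60 with exon 5 and 24 h for all other groups, the input of that line included. The effect of the isoform cannot be told apart from that of the longer induction. Each deposited comparison was read as a protein against its own input, though the value columns name no sample. Read so, the 3 comparisons share no sample. The folds of Puf60 with exon 5 then set immunoprecipitates after 48 h of induction against an input after 24 h.

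All folds below are the authors' own, on the log2 scale, read as immunoprecipitate over input, a direction that was inferred and is not stated in the sources used here. A cluster is called enriched when its deposited adjusted p is under 0.05 and its log2 fold is above 0. Neither read counts nor libraries' own values were used here, so depth and the spread between replicates are unknown, and no value below carries a replicate error. Wilson 95% intervals are given for shares of clusters and cover counting error only. They treat clusters as independent, which clusters of the same gene are not, so they may be too narrow and are no test. Of 14 neuroblast marker genes, 11, 10 and 10 had a cluster in the tables of Puf60 with exon 5, Puf60 without exon 5 and Rbm38. Of 16 markers of other cell types, 1 (Ptprc, a leukocyte gene) had a cluster, in each table.

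Small GTPases of these families switch between a GTP-bound form, which sits on a membrane and recruits effectors, and a GDP-bound form. Guanine nucleotide exchange factors switch them on and GTPase-activating proteins switch them off. Each Rab marks particular organelles or vesicles; Arf proteins recruit coat proteins and lipid-modifying enzymes, and Arl proteins act at the Golgi, lysosomes, cilia and in tubulin folding. In neuron-like cells they sort cargo along the secretory, endosomal and lysosomal routes.

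Reference sequence was at hand for 2 enriched member clusters in full, since the RefSeq promoter table (GRCm38.p6) covers few places inside genes. They are shown because they are the places where bases can be read beside a fold. The first is the Puf60 cluster in Rab3c, which encodes a synaptic vesicle GTPase, at chr13:110181086-110181135 on the minus strand. It lies 126924 nt from the gene's 3′ end (log2 fold 1.97, adjusted p 9.176e-09 in the authors' deposited table of Puf60 with exon 5). The second holds 30 bases, chr6:28423611-28423640 on the plus strand, inside an Rbm38 cluster at the start of Arf5, which encodes a Golgi Arf (log2 fold 2.18, adjusted p 1.211e-16 in the authors' deposited Rbm38 table). Capitals mark, in Rab3c, the match to TTTTNNAG and, in Arf5, a run of at least 6 pyrimidines.
Rab3c: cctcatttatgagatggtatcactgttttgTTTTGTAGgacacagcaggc
Arf5: cgccccaTCCCCCCgcggccggccggttcc
The Rab3c stretch held 54.0% pyrimidines and 1 match to TTTTNNAG, a pattern of thymines with AG 2 bases later that was chosen after the sequence was seen. Among 196902 windows of 50 nt from the RefSeq promoter table, 1.63% held the pattern on the transcript strand and 3.17% on either strand. The pattern was picked from this sequence and had to match it, so these shares of promoter windows do not measure its rarity. Pyrimidines made up 49.6% of the same windows. The Arf5 stretch held 70.0% pyrimidines. A match is a description of the letters only.

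Rbm38 clusters in the GTPase genes were mostly enriched, and Puf60 clusters mostly were not. The authors' deposited Rbm38 data placed 145 clusters in 36 members, and 123 of them were enriched (84.8%, Wilson 78.1 to 89.8). Over all protein-coding genes 52.0% of Rbm38 clusters were enriched, and over every listed cluster 50.9%. With exon 5, Puf60 had 84 clusters in 27 members, 20 of them enriched (23.8%, Wilson 16.0 to 33.9), against 39.3% in protein-coding genes and 39.1% of all listed clusters. Without exon 5, it had 112 clusters in 30 members, 26 of them enriched (23.2%, Wilson 16.4 to 31.8), against 36.4% and 36.1%. The median log2 fold over member clusters was 2.76 for Rbm38, -0.13 for Puf60 with exon 5 and -0.31 for Puf60 without it in the authors' deposited tables. The corresponding medians over protein-coding genes were 1.14, 0.25 and 0.12. Members were taken by symbol, with earlier results of these data known, and no test of the list against other genes was made.

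Counted by gene, 33 members held an enriched Rbm38 cluster, 12 an enriched cluster of Puf60 with exon 5 and 13 one of Puf60 without exon 5. Members without a settled strand count as not enriched here, as do such genes in the background. For Rbm38 this was 38.8% of all members, against 23.3% of all protein-coding genes. For Puf60 it was 14.1% with exon 5, against 15.4%, and 15.3% without exon 5, against 15.5%, so the Puf60 shares lay near the background. Among genes that had any cluster, 91.7% of members were enriched for Rbm38, against 84.4%. The same share was 44.4% for Puf60 with exon 5, against 64.7%, and 43.3% for Puf60 without exon 5, against 63.1%. A cluster in at least 1 table was found in 38 members (44.7%, against 33.2% of protein-coding genes).

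Of the 14 members enriched for either Puf60 isoform, 12 were enriched for Rbm38 too. Of the 35 members enriched in any table, 11 were enriched in all 3: Arf1, Arf3, Arf5, Arl8a, Rab1b, Rab24, Rab28, Rab3c, Rab5c, Rab6a and Rab7. A further 21 were enriched for Rbm38 alone, Arf6 for Rbm38 and Puf60 with exon 5, and Arl15 and Arl2 for Puf60 without exon 5. The single Arl2 cluster lies in a gene body shared with LOC115489019. Each member counted for both Puf60 isoforms was also enriched for Rbm38. The matching overlaps over all protein-coding genes are not given here, so these counts show no trait of the GTPase genes. Of protein-coding genes with an Rbm38 cluster, 84.4% were enriched for Rbm38.

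**Figure D1:**
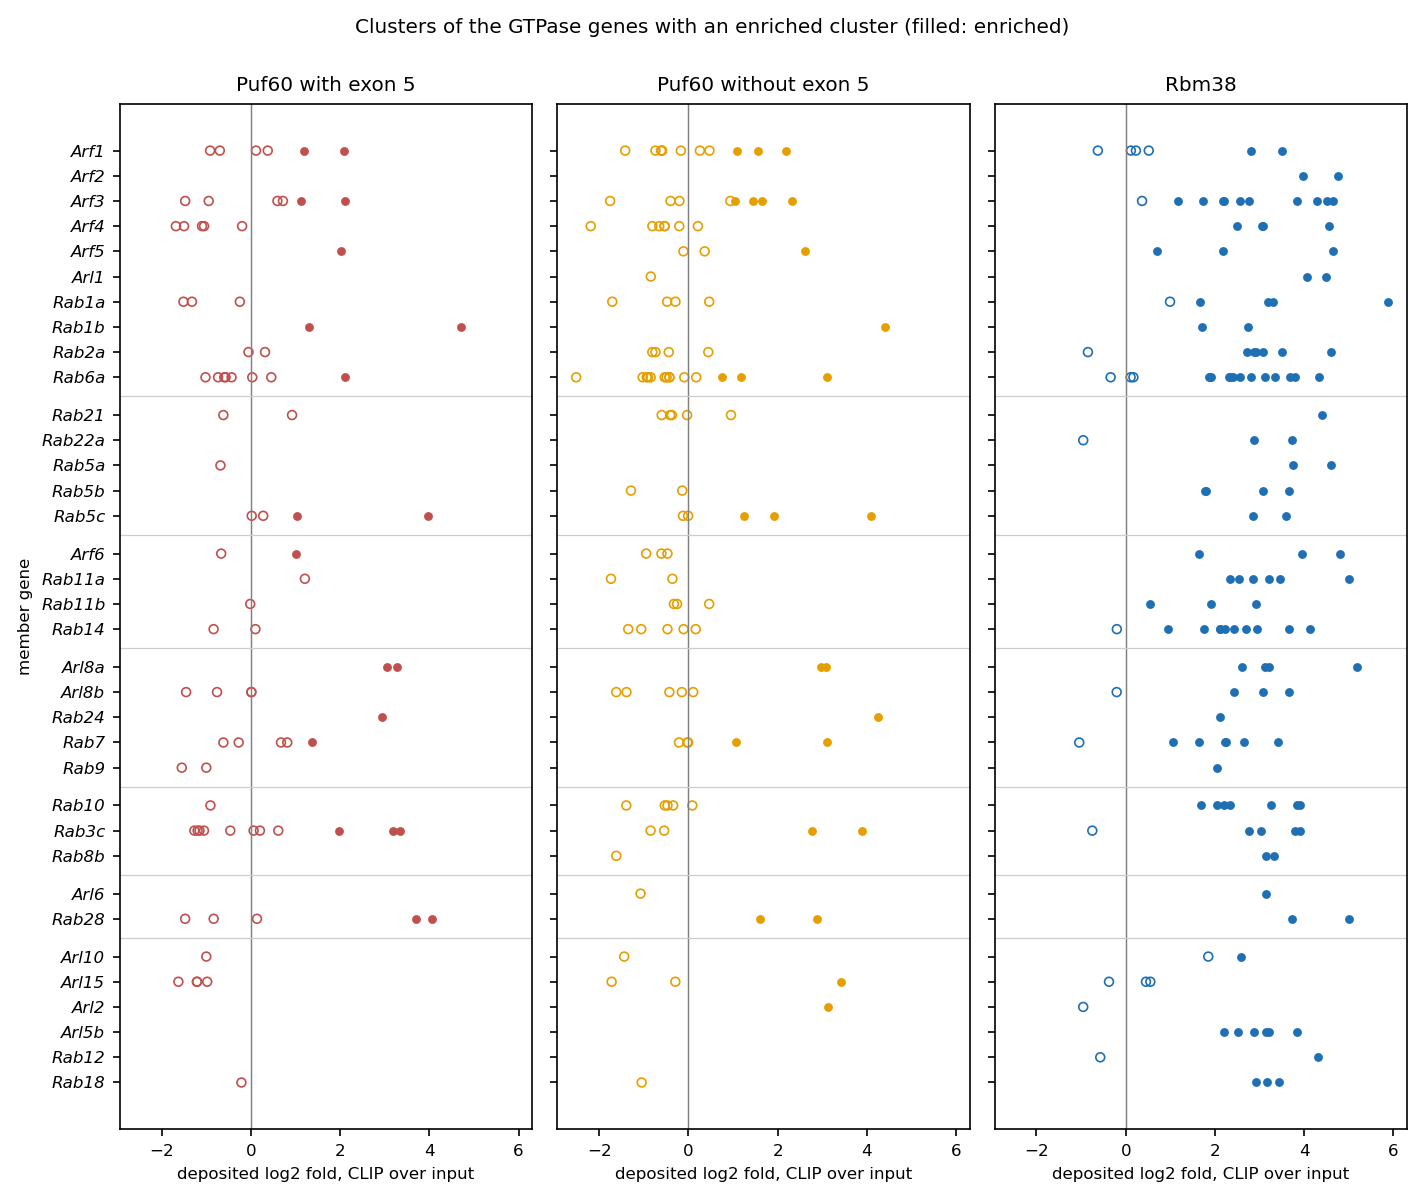
Deposited log2 fold of immunoprecipitate over input (horizontal axis) for each cluster of the 35 members enriched in any table (rows, italic), 1 panel per protein; filled points are enriched clusters and open points are not. Rows are grouped by role, from top: early secretory pathway and Golgi, early endosome, recycling and plasma membrane, late endosome and lysosome, regulated secretion, cilium, and others. Rbm38 points lie mostly above 0 (median of all member clusters 2.76), and Puf60 points gather around or below 0 with a few genes such as Rab1b and Arl8a standing higher.

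In the early secretory pathway and Golgi group, 10 of 15 genes were enriched for Rbm38 and 5 for each Puf60 isoform. The background for this and the other role groups is the share of all protein-coding genes that were enriched. It was 23.3% for Rbm38, 15.4% for Puf60 with exon 5 and 15.5% without it. No role group was tested against it. Members without a settled strand stand in the role groups as not enriched. Among them are Rab30 in this group and Rab4a in the recycling and plasma membrane group, whose clusters are given at the end. The highest Rbm38 fold of any member was in Rab1a (gene 19324, chromosome 11, 20201412 to 20226856), whose product works in transport from the endoplasmic reticulum to the Golgi. Its cluster at 20225001 to 20225400 had a log2 fold of 5.88 and an adjusted p written as 0 in the authors' deposited Rbm38 table. Overlapping Puf60 clusters in Rab1a were not enriched, at -0.25 and -1.51 with exon 5 and -0.47 and -0.29 without it on the log2 scale of the authors' deposited tables. Rab1b (gene 76308, chromosome 19, 5099207 to 5106996), the paralogue of Rab1a with the same role, showed the other order. At 5100586 to 5100635 it held the highest Puf60 folds of any member whose strand is settled, 4.72 with exon 5 (adjusted p 2.378e-63) and 4.42 without it (adjusted p 1.415e-64), and no Rbm38 cluster overlapped that place in the authors' deposited tables. Rbm38 was enriched at 2 other places in Rab1b, at 2.75 and 1.72 on the log2 scale of the authors' deposited table.

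Rab6a, which encodes a GTPase of retrograde Golgi transport, held the most enriched Rbm38 clusters of any member: 13 of 16, with log2 folds from 1.87 to 4.33 in the authors' deposited table. Puf60 had many listed clusters over the same stretch but few enriched ones, 1 of 8 with exon 5 and 3 of 14 without it. The place where all 3 proteins were enriched lay 1542.5 nt from the 3′ end, at log2 values of 2.11 and 3.12 for Puf60 with and without exon 5 and 2.82 for Rbm38 in the authors' deposited tables. Arf3, a Golgi Arf, held 10 enriched Rbm38 clusters of 11 (log2 folds 1.17 to 4.65), 2 of 6 for Puf60 with exon 5 and 4 of 8 without it, in the authors' deposited tables. Rab2a, which acts between the endoplasmic reticulum and the Golgi, held 6 enriched Rbm38 clusters of 7 (highest log2 fold 4.60 in the authors' deposited table) and none for Puf60 among 2 and 4 listed.

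Every one of the 6 Arf genes was enriched for Rbm38, against 23.3% of all protein-coding genes. Of their Rbm38 clusters 24 of 29 were past the threshold, against 52.0% of Rbm38 clusters in protein-coding genes. Arf1, which recruits the COPI coat to the Golgi, reached 3.50, and Arf2 reached 4.76, in the authors' deposited Rbm38 table. Arf4 and Arf5, the class II Arfs of the early secretory pathway, reached 4.55 and 4.63 in the same authors' deposited table. Arf2 had no Puf60 cluster. None of the 5 and 7 Puf60 clusters of Arf4 was enriched, with log2 folds from -2.19 to 0.21 in the authors' deposited tables. Arf5, in contrast, held an enriched cluster for both isoforms at 28426251 to 28426300 on chromosome 6 (2.02 with exon 5, 2.61 without it, in the authors' deposited tables). Arl1, which recruits golgin tethers to the trans-Golgi, had 2 enriched Rbm38 clusters (4.49 and 4.06 in the authors' deposited table).

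On early endosomes, 5 of 6 genes were enriched for Rbm38 and 1 for each Puf60 isoform. The 3 Rab5 paralogues, which drive early endosome fusion, all had enriched Rbm38 clusters, with highest log2 folds of 4.60 in Rab5a, 3.67 in Rab5b and 3.59 in Rab5c in the authors' deposited table. Among them Puf60 was enriched in Rab5c alone: at 100716886 to 100716935 on chromosome 11 its log2 folds were 3.98 with exon 5 and 4.09 without it in the authors' deposited tables. Rab21 and Rab22a, also early endosomal, reached 4.40 and 3.72 for Rbm38 in the authors' deposited table. Rab31 had 2 clusters of Puf60 without exon 5, neither enriched.

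In the recycling and plasma membrane group, 4 of 8 genes were enriched for Rbm38. Rab14, which acts between endosomes and the Golgi, held 10 enriched clusters (highest log2 fold 4.12), and Rab11a, the GTPase of recycling endosomes, held 6 (highest 5.00), in the authors' deposited Rbm38 table. Rab11b, its paralogue, held 3, the lowest at a log2 fold of 0.55 and the highest at 2.92 in the authors' deposited Rbm38 table. Arf6, which acts at the plasma membrane, reached 4.80 for Rbm38 in the authors' deposited table. For Puf60 with exon 5, 1 gene of this group was enriched (Arf6, 1.01 in the authors' deposited table). Rab11a had a higher fold there, 1.21, with a p of 1.005e-05 but an adjusted p of 1 in the authors' deposited table. Such calls rest on the deposited adjustment: 9, 2 and 4 member clusters of the 3 tables had a p under 0.05 and were not called. For Puf60 without exon 5 none of 13 listed clusters of the group was enriched.

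In the late endosome and lysosome group, 5 of 7 genes were enriched for Rbm38 and 3 for each Puf60 isoform. Arl8a and Arl8b, paralogues that couple lysosomes to kinesin motors, were both enriched for Rbm38, reaching 5.17 and 3.66 on the log2 scale of the authors' deposited table. For Puf60 they stood apart. In Arl8a (chromosome 1, 135146834 to 135156268) each of the 2 clusters per isoform was enriched, at 3.28 and 3.05 with exon 5 and 3.09 and 2.98 without it, in the authors' deposited tables. In Arl8b (chromosome 6, 108783059 to 108823723) 0 of 4 and 0 of 5 Puf60 clusters were enriched, with log2 folds from -1.61 to 0.11 in the authors' deposited tables. Rab24, an autophagy-linked GTPase, had a Puf60 cluster of 2.94 with exon 5 and 4.24 without it, and 2.12 for Rbm38 next to it, in the authors' deposited tables. Rab7, which governs late endosome maturation, held 6 enriched Rbm38 clusters (highest 3.42), 1 for Puf60 with exon 5 (1.37) and 2 without it (highest 3.10), in the authors' deposited tables. Rab9, of transport from late endosomes to the Golgi, reached 2.05 for Rbm38 in the authors' deposited table.

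**Figure D2:**
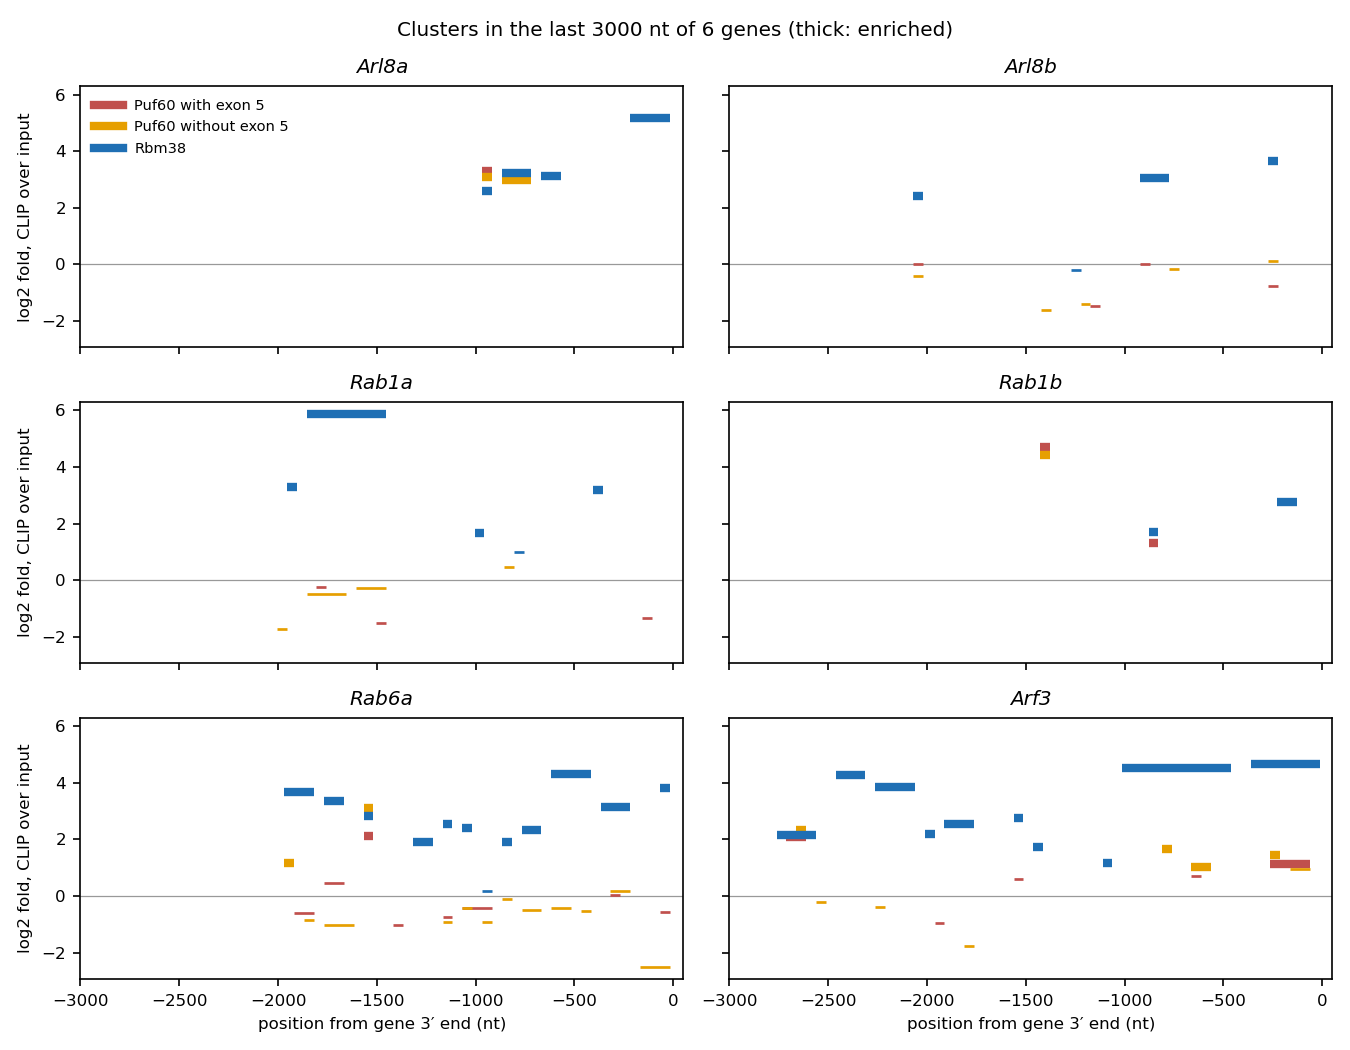
Clusters within the last 3000 nt of 6 genes: position from the annotated 3′ end (horizontal axis, nt) against deposited log2 fold over input (vertical axis), 1 colour per protein; bar length is cluster width and thick bars are enriched. Arl8a carries enriched bars of all 3 proteins and Arl8b only of Rbm38; Rab1a has the tallest Rbm38 bar (5.88), and Rab1b has Puf60 bars at 4.72 and 4.42 with no Rbm38 bar there.

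Among genes of regulated secretion and exocytosis, 3 of 12 were enriched for Rbm38, near the background of 23.3%. For each Puf60 isoform 1 of 12, Rab3c, was counted as enriched, against 15.4% with exon 5 and 15.5% without it. Rab26, Rab27b and Rab37 have no settled strand and stand in these counts as not enriched. Yet Rab37 held enriched clusters of both Puf60 isoforms on each strand, and Rab27b an enriched Rbm38 cluster, so the counts are lower bounds. Rab3c (gene 67295, chromosome 13, 110054187 to 110280996) separated the proteins by place. Its enriched Puf60 clusters, 3 with exon 5 (log2 folds 3.34, 3.19 and 1.97) and 2 without it (3.89 and 2.77), lay between 111074 and 126924 nt from the 3′ end, in the authors' deposited tables. They include the cluster whose sequence is printed above. The 4 enriched Rbm38 clusters of Rab3c (log2 folds 2.76 to 3.90 in the authors' deposited table) lay between 123.5 and 7224 nt from that end. Rab10, an exocytic GTPase, held 7 enriched Rbm38 clusters of 7 (highest 3.90) and none for Puf60, and Rab8b held 2 (highest 3.32), in the authors' deposited Rbm38 table.

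In the cilium group, Rab28 and Arl6 were enriched for Rbm38 and Rab28 for both Puf60 isoforms. In Rab28 (chromosome 5, 41624973 to 41708193) the enriched Rbm38 clusters lay nearer the 3′ end than the enriched Puf60 clusters. The 2 Rbm38 clusters, 3.73 and 5.01 in the authors' deposited table, were centred 62.5 and 237.5 nt from the 3′ end. A Puf60 cluster 47938 nt from it had log2 folds of 4.07 with exon 5 and 2.88 without it in the authors' deposited tables. A further one, 2188 nt from the end, reached 3.70 with exon 5 in the authors' deposited table. Puf60 without exon 5 was also enriched at 41633236 to 41633285 in Rab28 (log2 fold 1.61, adjusted p 1.416e-05 in the authors' deposited table). Enriched Puf60 places in Rab28 were thus not confined to the far gene body. Arl6, which recruits the BBSome coat to cilia, reached 3.15 for Rbm38 in the authors' deposited table. Outside these groups, Arl5b held 6 enriched Rbm38 clusters of 6 (highest 3.84), Rab12 reached 4.31, Rab18 3.43 and Arl10 2.59 in the authors' deposited Rbm38 table. Arl15 had an enriched cluster of Puf60 without exon 5 at 3.43 and Arl2, a tubulin folding cofactor, at 3.14 in the authors' deposited table.

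Enriched clusters of the members lay mostly close to the 3′ ends of their genes for all 3 proteins, and for Puf60 so did the clusters that were not enriched. Within 2000 nt of the annotated end lay 94 of 123 enriched Rbm38 clusters (76.4%), against 43.1% of enriched clusters in protein-coding genes. The corresponding counts were 13 of 20 for Puf60 with exon 5 (65.0%, against 15.1%) and 19 of 26 without it (73.1%, against 15.2%). Clusters that were not enriched lay as near for Puf60, 59.4% with exon 5 and 67.4% without it, against 29.7% and 34.3% in protein-coding genes. For Rbm38 fewer of the clusters not enriched lay there (36.4%, against 10.2%). By gene, 32 of the 33 members enriched for Rbm38 had an enriched cluster within 2000 nt of the end, and in 30 the highest cluster was there (against 64.2% of protein-coding genes enriched for Rbm38). For Puf60 the highest cluster lay there in 8 of 12 members with exon 5 (against 18.4%) and 9 of 13 without it (against 18.7%). The median gene length was 20916 nt for members and 17149 nt for all protein-coding genes, and among genes with a cluster 25342 and 28939 nt; the part of gene length in these shares was not tested.

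The share enriched was then read by place in the gene. Among member clusters within 2000 nt of the 3′ end, 25.5% were enriched for Puf60 with exon 5 and 24.7% without it. These shares were close to those of protein-coding genes at the same place, 24.8% and 20.2%. Farther from the end 21.2% (7 of 33) and 20.0% (7 of 35) of member clusters were enriched, against 43.9% and 42.5%. For Rbm38 the shares were 92.2% of 102 near clusters and 67.4% of 43 far ones, against 82.1% and 40.7%. The Rbm38 share of members was thus above that of protein-coding genes at both places, and the Puf60 share was below it at the far place. Whether the clusters lie in coding exons, introns or untranslated regions was not analysed here, since gene bodies without exons were used, and the part of gene level in these shares was not tested.

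**Figure D3:**
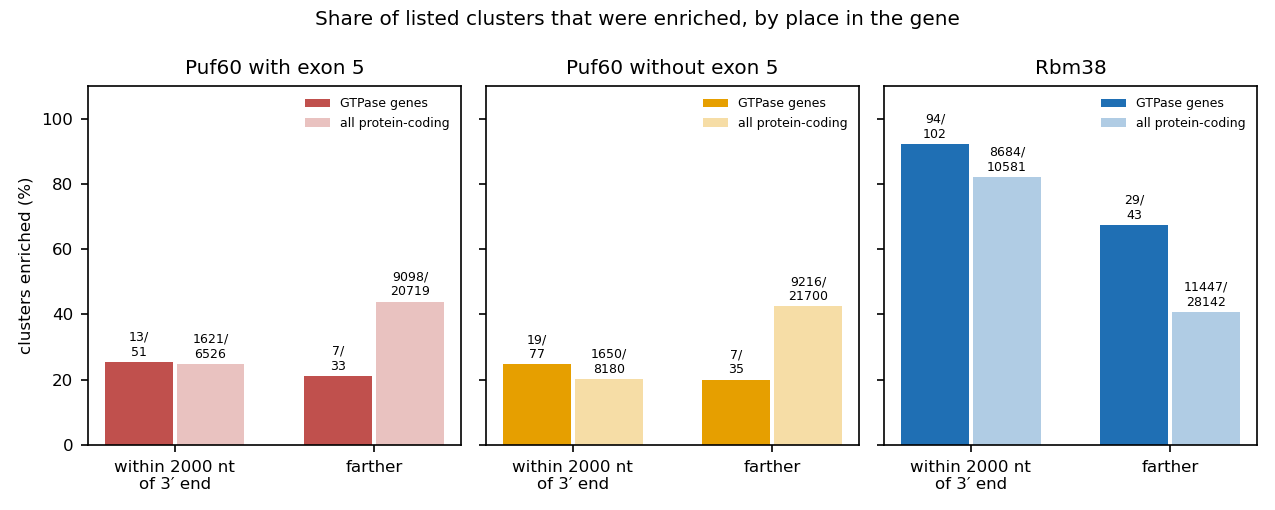
Percentage of listed clusters that were enriched (vertical axis) within 2000 nt of the gene's 3′ end and farther from it, 1 panel per protein; dark bars are the GTPase genes, pale bars all protein-coding genes, and the numbers above are enriched over listed clusters. Near the 3′ end the Puf60 bars of both gene sets are close (25.5% and 24.8% with exon 5), and for Rbm38 the dark bars are higher at both places (92.2% and 67.4%).

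**Figure D4:**
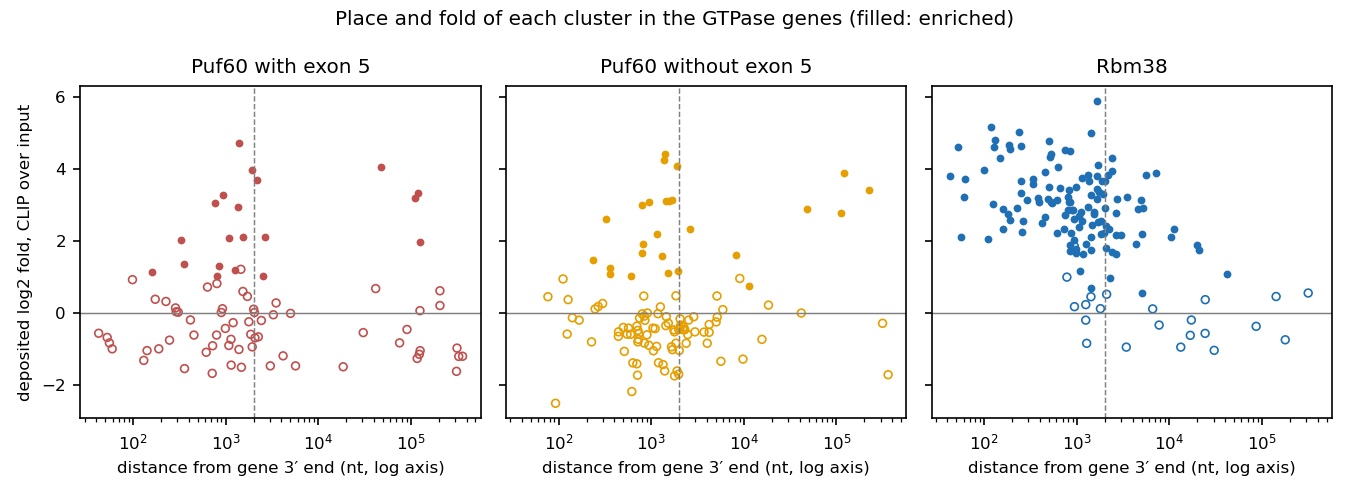
Distance of each member cluster from the gene's 3′ end (horizontal, nt, log axis) against deposited log2 fold over input (vertical), 1 panel per protein; filled points are enriched and the dashed line stands at 2000 nt. Most Rbm38 points are filled and left of the line (94 of 123 enriched), and the Puf60 panels hold a small set of filled points beyond 10000 nt (4 with exon 5, 5 without).

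The Puf60 isoforms were compared at 46 places in 21 members where a cluster of each table overlapped. Both were enriched at 15 places in 11 genes (32.6%, against 45.7% of such places in protein-coding genes) and neither at 28. Puf60 with exon 5 alone was enriched at 2 (4.35%, against 5.14%) and Puf60 without it alone at 1 (2.17%, against 4.6%). Matched places leave out enriched clusters that no listed cluster of the other isoform overlapped. These were 3 of 20 with exon 5 (15.0%, against 30.9% in protein-coding genes) and 9 of 26 without it (34.6%, against 33.3%). Over the 18 places enriched in at least 1 table, the log2 fold with exon 5 minus that without had a median of -0.11 (quartiles -0.51 and 0.27), 8 places being higher with exon 5 and 10 without. The same median in protein-coding genes was 0.05 (quartiles -0.41 and 0.52). Each of the 4 widest differences was over 1 in size. Arf6 was higher with exon 5 (1.01 against -0.60, a difference of 1.61), as was Rab28 (4.07 against 2.88, a difference of 1.18), in the authors' deposited tables. Rab24 was lower with exon 5 (2.94 against 4.24, a difference of -1.30), as was Rab6a (2.11 against 3.12, a difference of -1.01), in the authors' deposited tables. After those came, on the lower side, Rab5c (-0.88), Arf5 (-0.60), Rab3c (-0.56), Arf1 (-0.38) and Arf3 (-0.32 and -0.23), from the authors' deposited tables. On the higher side followed other places in Rab3c (0.42), Rab7 (0.30), Rab1b (0.30), Arl8a (0.20 and 0.07) and Arf3 (0.19), from the authors' deposited tables. Without values per library, none of these differences could be tested, and each also sets 48 h against 24 h of induction.

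Rbm38 and Puf60 clusters met at 41 places in the members with exon 5 and 49 without it. Rbm38 alone was enriched at 28 of the 41 (68.3%, against 38.4% of such places in protein-coding genes) and at 36 of the 49 (73.5%, against 44.5%). Both proteins were enriched at 10 places in each case, in 8 and 6 genes, shares near the background (24.4%, against 19.2%, and 20.4%, against 16.0%). Puf60 alone was enriched at 1 place with exon 5, in Arf1 (2.44%, against 17.4%), and at 0 without it (against 17.0%). The median log2 fold of Puf60 minus that of Rbm38 was -2.90 with exon 5 and -3.45 without it, against -0.74 and -1.10 in protein-coding genes, from the authors' deposited tables. At the 46 places enriched for Rbm38 and matched to Puf60 without exon 5, the Puf60 fold was below input at 31, and with exon 5 at 14 of 38. Over all member clusters the Puf60 fold was below input at 65.2% without exon 5 and 52.4% with it. In protein-coding genes these shares were 46.5% and 43.6%. Low Puf60 folds were thus common in the members as a whole, and whether places enriched for Rbm38 differ was not tested. The widest gaps were in Rab1a (5.88 for Rbm38 against -0.47 for Puf60 without exon 5) and at the end of Rab6a (3.80 against -2.51), in the authors' deposited tables. The places where Puf60 without exon 5 was above Rbm38 lay in Arl8a (3.09 against 2.61), Rab6a (3.12 against 2.82) and Arf3 (2.33 against 2.17), in the authors' deposited tables.

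**Figure D5:**
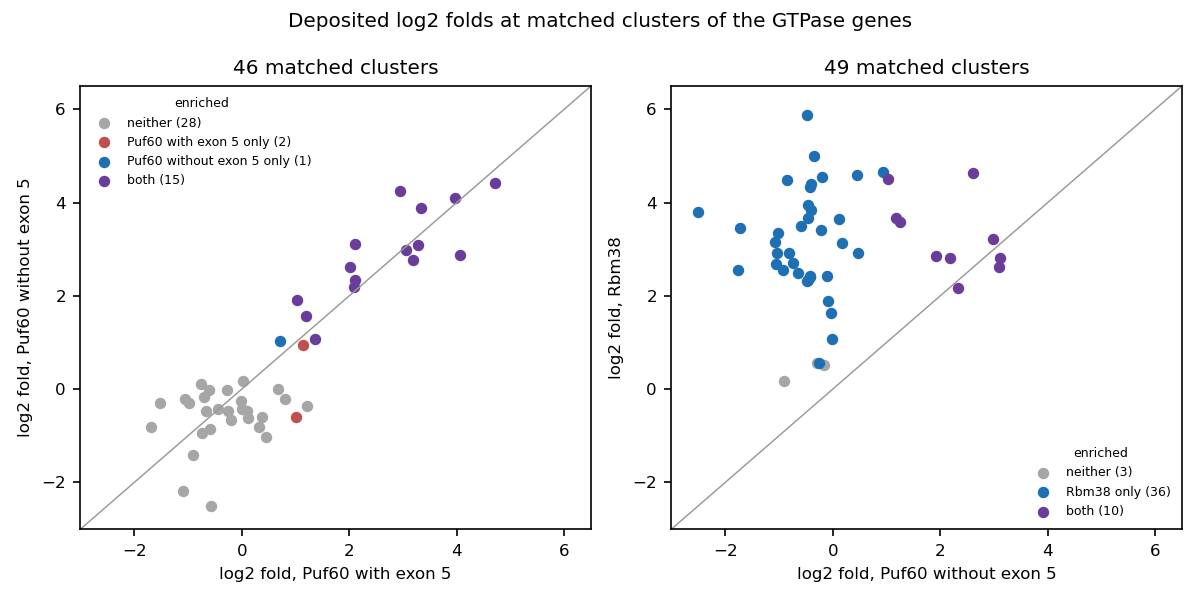
Deposited log2 folds at matched clusters of the GTPase genes: Puf60 with exon 5 (horizontal) against Puf60 without it (vertical) at 46 places, and Puf60 without exon 5 (horizontal) against Rbm38 (vertical) at 49 places; colours show in which table a place was enriched and the line marks equal folds. The isoform points enriched in both tables follow the line, and in the second panel 36 places are enriched for Rbm38 alone, with log2 folds from 0.55 to 5.88.

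Read from the Puf60 side, 10 of its 20 enriched member clusters with exon 5 (50%, against 20.9% in protein-coding genes) overlapped an enriched Rbm38 cluster, and 12 of 26 without it did (46.2%, against 18.8%). Asking that the clusters overlap by at least 50% of each lowered the latter share to 23.1%. Read from the Rbm38 side, 8.13% of its enriched member clusters overlapped an enriched cluster of Puf60 with exon 5, against 10.7%. No Rbm38 cluster, enriched or not, overlapped 45% of the enriched Puf60 clusters with exon 5 (against 62.2%) and 53.8% of those without it (against 63.3%).

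The regulators and effectors of these GTPases were taken as 171 genes in 7 lists of activators, GTPase-activating proteins, membrane-cycle factors and effectors. Enriched clusters were found in 41, 42 and 60 of the 72, 65 and 77 of them with a cluster, for Puf60 with exon 5, Puf60 without it and Rbm38 (56.9%, 64.6% and 77.9%, against 64.7%, 63.1% and 84.4% of protein-coding genes with a cluster). By cluster the enriched shares were 42.9%, 41.1% and 46.2%, near the 39.3%, 36.4% and 52.0% of protein-coding genes. Their enriched clusters lay within 2000 nt of the 3′ end in 10.0%, 12.2% and 30.9% of cases, against 15.1%, 15.2% and 43.1% in protein-coding genes. The difference from the GTPase genes was not tested.

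Of the 32 Rab activators, 10, 9 and 11 were enriched for Puf60 with exon 5, Puf60 without it and Rbm38. The background for this and the next 6 lists is the 15.4%, 15.5% and 23.3% of all protein-coding genes that were enriched. The leading Puf60 folds were in Dennd4a (5.32 with exon 5, 4.93 without), Dennd6b (4.68 and 5.10) and Sbf2 (4.32 and 5.14), all DENN-domain genes, in the authors' deposited tables. For Rbm38 Madd (4.51), Rab3ip (3.37) and Dennd5b (3.33) led in the authors' deposited table. Of 39 Rab GTPase-activating proteins, 7, 7 and 10 were enriched. Puf60 led there in Tbc1d31 (4.31 with exon 5), Tbc1d9b (4.15 and 5.10), Rabgap1l (4.10 and 3.82) and Sgsm2 (3.83 without exon 5), in the authors' deposited tables. Rabgap1 (6.09), Tbc1d22b (3.89) and Tbc1d15 (3.62) led for Rbm38 in the authors' deposited table.

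Among 7 membrane-cycle genes, which lipidate Rab proteins or extract them from membranes, 3, 5 and 5 were enriched. Gdi2 (4.14 and 4.12), Rabggtb (3.09 with exon 5) and Chm (4.11 without) led for Puf60 in the authors' deposited tables, and Rabggtb (5.00) and Gdi2 (3.09) for Rbm38. Of 35 Rab effectors, 7, 7 and 12 were enriched, led by Rilpl2 (5.70 and 6.26), Rims2 (5.32 and 5.68) and Gcc2 (4.36 and 4.95) for Puf60 in the authors' deposited tables. Bicd1 (4.71), Eea1 (4.02) and Ehbp1 (3.71) led the Rab effectors for Rbm38 in the authors' deposited table.

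Of 16 Arf activators, 5, 3 and 4 were enriched, with Cyth2 (4.03 and 4.39), Psd (3.68 and 4.05), Cyth3 (3.38 with exon 5) and Arfgef1 (3.01 without) leading for Puf60 in the authors' deposited tables. Iqsec1 (3.89), Arfgef2 (3.02) and Cyth3 (2.68) led for Rbm38 in the authors' deposited table. Of 27 Arf and Arl GTPase-activating proteins, 5, 7 and 12 were enriched. Agfg1 (6.21 and 6.29), Agap1 (5.97 and 6.99) and Asap1 (4.56 and 4.50) led for Puf60, and Agap3 (4.41), Acap3 (3.62) and Agfg1 (3.45) for Rbm38, in the authors' deposited tables. Of 15 Arf and Arl effectors, 4, 4 and 6 were enriched. Arfip1 (4.20 with exon 5), Golga1 (3.33 and 3.44), Gga1 (3.25 and 3.38) and Gga3 (3.37 without exon 5) led for Puf60, and Arl2bp (5.10), Gga2 (4.97) and Golga4 (4.59) for Rbm38, in the authors' deposited tables.

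Of the remaining 50 members, 43 held no enriched cluster on their own strand, and 7 had clusters but no settled strand. Arl13b, Rab31 and Rab3d had listed clusters on it, none enriched. Rab33b, Rab34, Rab40c and Rab9b had clusters on the opposite strand only, and the 7 members with clusters but no settled strand were Arl5c, Rab27b, Rab30, Rab36, Rab37, Rab44 and Rab4a. Of these, Arl5c, Rab36 and Rab44 had no enriched cluster on either strand. Rab37 had enriched clusters of both Puf60 isoforms on each strand, so an enriched Puf60 cluster lies on its own strand, whichever that is. For Rab27b, Rab30 and Rab4a it is unknown whether the enriched clusters lie on the gene's strand. No cluster was listed in 36: Arl11, Arl13a, Arl14, Arl16, Arl3, Arl4a, Arl4c, Arl4d, Arl5a, Arl9, Rab13, Rab15, Rab17, Rab19, Rab20, Rab23, Rab25, Rab26, Rab27a, Rab29, Rab2b, Rab32, Rab33a, Rab35, Rab38, Rab39, Rab39b, Rab3a, Rab3b, Rab40b, Rab42, Rab43, Rab4b, Rab6b, Rab7b and Rab8a. Their transcript levels were not used here, so a gene without clusters cannot be told apart from one that is little expressed.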

How the data were processed

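Per the labels' protocols, RNA was partly digested, immunoprecipitated with anti-Flag and sequenced; the input skipped the immunoprecipitation. TopHat, edgeR and the builds NCBIM37 and mm10 stand in the submitters' processing notes, with neither versions nor roles; how clusters and p-values were made is not given in the sources used here. Per the file headers, the authors deposited for each cluster a log2 fold with its p-value, raw and adjusted, which were used as deposited, in place of the count tests planned for values per library. The tables hold 0 further value columns. The same pair of log2 fold and p-value often stands at several clusters (72 of 84, 89 of 112 and 94 of 145 member clusters).

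Strand was read from the cluster start modulo 50 (0 plus, 35 minus). A member's strand came from RefSeq (70 members) or from clusters at 3 or more places with 80% on 1 offset (4: Arf6, Rab18, Rab2a and Arl8b); 11 stayed unresolved. In genes with both, 3247 of 3278 inferred strands (99.1%) were the annotated one. Matched places are pairs of clusters from different tables, each overlapping the other by at least 1 nt and more than any other cluster.

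Members, role groups and lists were chosen with earlier results of these data known. Named genes are, per table, the 8 members with most enriched clusters, the 10 of highest fold, members enriched in all 3 tables, those without clusters, the 8 widest isoform differences each way, and up to 3 genes per list; 1 gene that the rule names is not reported here. Python 3.11.15, pandas 2.3.3, numpy 2.4.6, scipy 1.17.1 and matplotlib 3.10.9 were used, and the gene assignment and matching were tested on simulated data.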

Additional observations from a re-analysis of the deposited data

Results flagged for a closer look

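Signal outside the comparisons above, in clusters that lie in member genes but not on a known gene strand, was found in all 3 tables. On the strand opposite to a member, 4 of 9 clusters were enriched for Puf60 with exon 5, 3 of 9 for Puf60 without it and 3 of 9 for Rbm38, against 39.1%, 36.1% and 50.9% of all listed clusters. In Rab3c the same pair of opposite-strand places was enriched for both isoforms (log2 folds 2.65 and 3.19 with exon 5, 3.29 and 2.67 without, in the authors' deposited tables). Rab8b held an opposite-strand cluster at 3.33 with exon 5 and one at 4.03 without it, and Rab7 one at 1.95 with exon 5, in the authors' deposited tables. For Rbm38 these clusters lay in Rab40c (3.13, inside the pseudogene Cox7c-ps1), Rab9b (2.44) and Rab33b (1.08), in the authors' deposited table.

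In members whose strand could not be settled, 3 of 5 clusters were enriched for Puf60 with exon 5, 3 of 5 for Puf60 without it and 3 of 7 for Rbm38. Over all listed clusters the shares were 39.1%, 36.1% and 50.9%, and the enriched Puf60 clusters lay in Rab37 and Rab30 only. Counts this small show no trait of these members. Rab37, which encodes a secretory granule GTPase, held the highest Puf60 folds in any member gene body: 5.98 and 6.06 at 115116401 to 115116500 on chromosome 11 in the authors' deposited tables with exon 5 and without it. Rbm38 stood at 0.30 there and was not enriched, in the authors' deposited table. A second place in the Rab37 gene body, at 4.44 and 4.49 for Puf60 in the authors' deposited tables, also lies in Cd300lf. Read from the cluster starts, the first place is on the plus strand and the second on the minus strand. So they cannot both be on the strand of Rab37. Whichever strand Rab37 has, an enriched Puf60 cluster lies on it, though the counts by gene above leave Rab37 out. Rab30 held a cluster at 4.62 and 4.42 for Puf60 and 0.58 for Rbm38, in the authors' deposited tables. For Rbm38 the others were Rab27b (2.10) and Rab4a (0.96), in the authors' deposited table.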

How the results depend on the processing

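Of 74 alternative values over 13 results, 67 kept within 1.5 times the count, within the counting interval or within the spread of differences, and 7 moved. Among those that kept, Benjamini-Hochberg adjustment of the deposited p gave 27 enriched clusters in 14 members for Puf60 with exon 5, against 20 in 12. Without exon 5 it gave 28 in 14, against 26 in 13, and for Rbm38 126 in 34, against 123 in 33. The main calls thus depend in part on the deposited adjustment. Asking for at least 2 enriched clusters left 7 members for Puf60 with exon 5 and 8 without it. Within 1000 nt of the 3′ end lay 35%, 34.6% and 51.2% of enriched clusters for Puf60 with exon 5, Puf60 without it and Rbm38, and within 5000 nt 91.9% for Rbm38. Asking that clusters overlap by at least 50% of each left 23.1% of enriched clusters of Puf60 without exon 5 overlapping an enriched Rbm38 cluster. Among alternatives chosen after seeing the data, strand from RefSeq alone left 19, 26 and 108 enriched clusters, and leaving out clusters whose pair of values stands at 10 or more clusters left 19, 23 and 111. No paired analysis was possible because the tables hold no values per library; leaving out replicates was not run for the same reason. Depth is unknown.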
